A study of Mus musculus with 4 samples.

Results

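Akr1e1 encodes an enzyme of the aldo-keto reductase family, and its start site carries the H3K4me3 peak described here. The mark H3K4me3 (histone H3 with 3 methyl groups on lysine 4) was measured by ChIP-seq in adult ovaries of Swiss mice. The CD group were daughters of dams given chlordecone (CD), an organochlorine insecticide, by gavage in olive oil at a daily dose of 100 µg/kg between E6.5 and E15.5 of embryonic development, and the control group were daughters of dams given the same volume (150 µl) of oil. Each group had 2 samples, and each sample joined 2 ovaries from different animals, so that the 4 samples stand for 8 ovaries. The tissue was whole ovary, in which oocytes, granulosa, theca and luteal cells and stroma are mixed, so a change in a cell type's share and a change within its chromatin cannot be told apart. The data are a single list of 151 peaks that passed the authors' thresholds for a difference between both groups, with the authors' own fold change for each. Only the positions were used here, and the list holds no value per sample. No level in any sample, no spread and no test between CD and control can therefore be given for Akr1e1, no marker gene could be used to check the labelled tissue, and the depth behind the peak is unknown.

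The peak at Akr1e1 was selected by position. Every listed peak with its start and end between 4000000 and 4700000 on chromosome 13 (mm10) was taken, a window that spans the Akr1c and Akr1e1 gene cluster, and 1 of the 151 listed peaks met this rule. The window was drawn around this peak with the list known, so its presence there is not a finding. All values below describe where the peak lies and what sequence it holds.

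Trimethylation of lysine 4 is laid down around the start sites of active genes, and it is usually widest and strongest where CpG dinucleotides are dense. Aldo-keto reductases use NADPH to turn carbonyl groups of sugars, lipid aldehydes, steroids and foreign compounds into alcohols. Akr1e1 reduces 1,5-anhydro-D-fructose to 1,5-anhydro-D-glucitol, while its Akr1c neighbours act mostly on ketosteroids and hydroxysteroids. Akr1c18 is the best known of these in the ovary, where it removes active progesterone when the corpus luteum regresses. Chlordecone is itself a ketone, and in human liver it is reduced to chlordecone alcohol by chlordecone reductase, an aldo-keto reductase encoded by AKR1C4. None of these data measured such a reaction, and nothing here bears on which mouse enzyme would carry it out.

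The listed peak covered the start site of Akr1e1. It ran over chr13:4608356-4609746, a width of 1391 bp. Akr1e1 (ENSMUSG00000045410) lies on the minus strand from 4590750 to 4609174, a span of 18425 bp, so that its start site at 4609174 falls inside the peak. From this start site the peak reached 572 bp upstream and 818 bp into the gene, and its centre lay 123 bp downstream. GENCODE gives Akr1e1 4 transcripts, 2 of them protein-coding, and all 4 start inside the peak within 56 bp of each other. RefSeq places the start of the curated mRNA 10 bp further into the gene, also inside the peak.

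In the longest coding transcript, which has 10 exons and 903 coding bases for 301 amino acids, the peak covered the whole of exon 1 (4609085 to 4609174, 90 bp). Of these 90 bp, 51 are untranslated and 39 are coding. A further 729 bp of the peak, 52.4% of its width, lay in intron 1, which measures 1526 bp in all (4607559 to 4609084). The upstream part made up 41.1% of the width. Exon 2 lies 798 bp beyond the edge of the peak, and the peak covered 4.45% of the gene body.

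**Figure D1:**
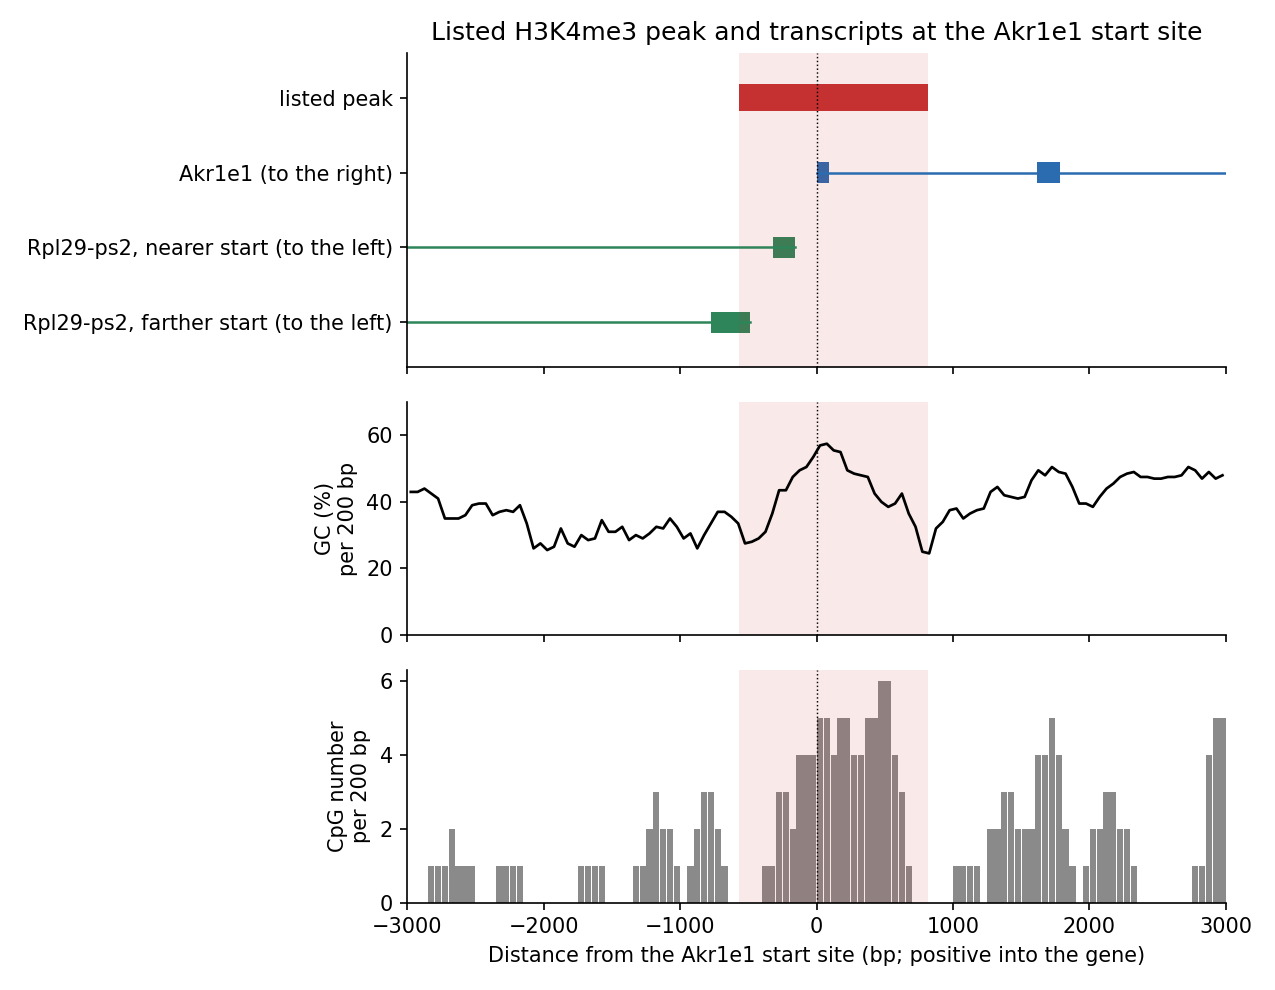
Map of the Akr1e1 start site. The x axis gives the distance from the start site in bp, positive into the gene. The upper panel shows the listed peak (red), exons 1 and 2 of Akr1e1 (blue boxes) and the first exons of both spliced Rpl29-ps2 transcripts (green boxes), with lines for introns, and the lower panels show GC (%) and CpG number in windows of 200 bp taken every 50 bp. The peak spans 572 bp upstream to 818 bp downstream, and CpG number is highest, at 6 per 200 bp, in the windows centred 475 and 525 bp inside the gene.

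A second annotated gene starts inside the same peak on the other strand. Rpl29-ps2 (ENSMUSG00000094772), named as a processed pseudogene of Rpl29, a protein of the large ribosomal subunit, runs on the plus strand from 4609334 to 4615025. The peak overlapped 413 bp of this span. The overlap does not involve the ribosomal sequence. The copy of the Rpl29 message itself is a transcript of a single exon of 478 bp at 4614182 to 4614659, which lies 4436 bp beyond the edge of the peak. What overlapped were the first exons of both longer, spliced transcripts. The first exon of the transcript nearer to Akr1e1 (158 bp, 4609334 to 4609491) lay wholly inside the peak. That of the farther one (287 bp, starting at 4609660) had 87 bp in it. RefSeq draws Rpl29-ps2 only around the ribosomal copy, from 4614127 to 4614793, so under that annotation the pseudogene is 4381 bp away and Akr1e1 alone overlaps the peak.

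Akr1e1 and the nearer Rpl29-ps2 transcript start head to head, with 159 bases between them. The farther start of Rpl29-ps2 lies 486 bp from that of Akr1e1. Start sites facing away from each other at this distance are not rare. Of 21951 annotated protein-coding genes, 3094 (14.1%) have a start of an annotated transcript on the opposite strand within 1 kb upstream, and 8.40% have one as close as at Akr1e1 or closer. Among the 151 listed peaks, 5 held starts on both strands. Since ChIP reads carry no strand of transcription, the share of the mark that belongs to either gene cannot be told apart.

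The bases between both starts are shown because they form the part of the peak upstream of one gene and of the other. They are printed on the strand of Akr1e1 and end on the base before its start site (mm10, minus strand, chr13:4609175-4609333). Capitals mark the CCAAT box motif and CpG dinucleotides.
Akr1e1 to Rpl29-ps2: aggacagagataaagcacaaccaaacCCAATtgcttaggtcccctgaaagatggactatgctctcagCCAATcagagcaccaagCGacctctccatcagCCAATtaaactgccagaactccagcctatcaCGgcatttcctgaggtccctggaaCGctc

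This stretch holds 3 CCAAT boxes, the motif bound by the factor NF-Y, at 133, 92 and 60 bp upstream of the GENCODE start, all read in the direction of Akr1e1. Promoters as RefSeq gives them (300 bases, 250 before the start to 50 after it, GRCm38.p6) were searched on both strands for the same letters. Of 32851 promoters, 12289 (37.4%) hold at least 1 CCAAT and 1107 (3.37%) hold 3 or more, as that of Akr1e1 does. The Akr1e1 promoter has no TATA box (TATAAA, in 13.6% of promoters), no GC box (GGGCGG, 35.7%) and no core of the antioxidant response element (TGACNNNGC, 12.4%). Because chlordecone is known as an estrogenic compound, the estrogen response half-site (GGTCA, 40.5% of promoters) and the full element (GGTCANNNTGACC, 0.07%) were searched too, and neither is in the promoter. Every match to the full element is also a match to the half-site. Over the whole peak, 1 half-site was found 517 bp upstream of the start and 1 TATAAA 762 bp inside the gene, and the other searched motifs did not occur beyond the 3 CCAAT boxes. These are matches of letters and not sites of binding.

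CpG dinucleotides were few for a start site but more frequent than at the sides of the peak. The peak held 21 CpG in 1391 bp, or 1.51 per 100 bp, at a GC content of 42.6% and a ratio of observed to expected CpG of 0.332. They were uneven, with 15 in the 819 bp inside the gene, start base included (GC 44.3%), and 6 in the shorter upstream part of 572 bp (GC 40.2%). The ratio of observed to expected CpG was 0.382 inside the gene and 0.270 upstream. The 1 kb next to the peak on the gene side held 10 CpG at 41.0% GC, and the 1 kb on the upstream side held 6 at 31.4% GC. GC in windows of 200 bp was highest, at 57.5%, centred 75 bp inside the gene. Within 500 bp on each side of the start there were 17 CpG, against a median of 41 over 21951 coding starts. Of these starts, 31.4% had fewer. In the shorter RefSeq promoter the number was 6, against a median of 7, and 43.6% of promoters had fewer. The Akr1e1 start was therefore CpG-poor next to most coding genes by the wider window and near the middle of RefSeq promoters by the narrower one. The set compared changes along with the window, so the shift cannot be credited to width alone.

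Akr1e1 was the only protein-coding gene of its cluster with a listed peak near a start site. The window holds 21 annotated genes, of which 9 are protein-coding (8 Akr1c genes and Akr1e1), 7 are pseudogenes and 5 are other non-coding genes. The pseudogenes are Gm47853, Gm18857, Gm2123, Marcksl1-ps4, Gm9973, Gm47951 and Rpl29-ps2. Of the 9 coding genes, 1 had a listed peak within 1 kb of a start site, Akr1e1 itself. Across 21866 genes with a coding transcript, 44 (0.201%) had one within 1 kb. The nearest other coding start was that of Akr1c21, which encodes a 17-alpha-hydroxysteroid dehydrogenase, at 34.3 kb from the peak. Akr1c20 lay at 85.0 kb and Akr1c6, a 17-beta-hydroxysteroid dehydrogenase, at 161 kb. Further off came Akr1c12 at 329 kb, Akr1c19 at 363 kb, Akr1c13 at 417 kb, Akr1c18 at 458 kb and Akr1c14, a 3-alpha-hydroxysteroid dehydrogenase, at 549 kb. The list holds only peaks that passed the authors' thresholds, so it does not say whether the Akr1c starts carried H3K4me3 in either group.

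The Akr1c starts also differed from that of Akr1e1 in base composition. Within 500 bp of the outermost annotated start, the 8 Akr1c genes had 1 to 8 CpG, with a median of 4.5, against 17 at Akr1e1. Akr1c19 had the lowest number, at 1. The highest was 8, at Akr1c18, and 16.3% of all coding starts had fewer than 8. Their GC content ran from 32.9% to 40.8%, below the 45.3% of Akr1e1. Akr1e1 lay outside the Akr1c range in both measures. It was highest in the RefSeq promoters too, where it had 6 CpG and the 7 Akr1c genes matched in the table had 0 (Akr1c6) to 5 (Akr1c18). These numbers describe the reference genome of C57BL/6J and were not read from the Swiss mice.

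**Figure D2:**
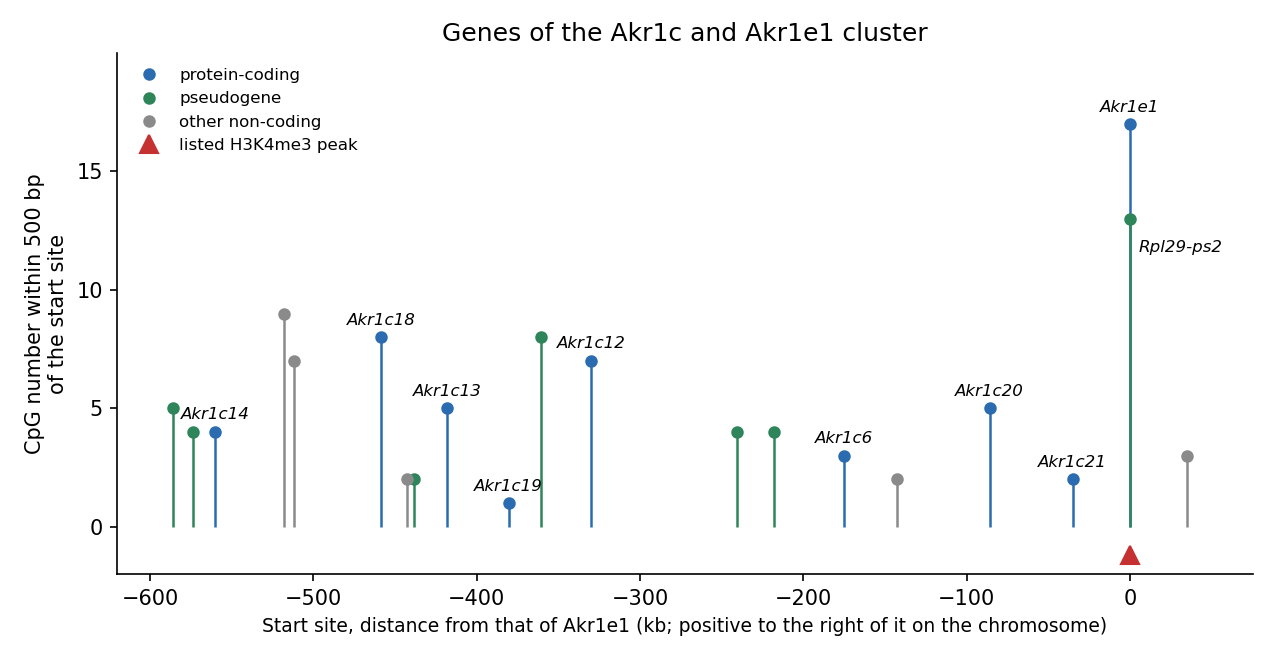
The 21 annotated genes of the window. The x axis gives the distance of each outermost start site from that of Akr1e1 in kb, the y axis the number of CpG within 500 bp on each side of it, colours give the gene type and the triangle marks the listed peak. Akr1e1, with 17 CpG, and Rpl29-ps2, with 13, stand above every other gene of the window, and the peak lies at both.

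The Akr1c proteins of the cluster were far more alike to one another than to Akr1e1. With proteins translated from the GENCODE coding sequences, the 8 Akr1c proteins (323 amino acids each) were 64.1% to 94.1% identical over 28 pairs, with a median of 69.3%. The closest pairs were Akr1c12 with Akr1c13 (94.1%) and Akr1c6 with Akr1c20 (89.2%). Akr1e1 was 44.9% to 49.8% identical to them, with a median of 48.2%, so the ranges do not meet. It was closer to genes on another chromosome. Akr1b3, the aldose reductase that makes sorbitol from glucose, was 61.5% identical to Akr1e1. Akr1b7 followed at 61.1%, and Akr1b8 and Akr1b10 both stood at 59.5%. Akr1d1, which reduces the steroid A ring on the way to bile acids, was 51.8% identical, and Akr1a1, the aldehyde reductase, 49.2%. Akr1cl, at 47.5%, was within the range of the Akr1c genes. The distant members were Kcnab1 (27.0%), Kcnab2 (26.6%) and Kcnab3 (21.6%), which encode beta subunits of potassium channels, and Akr7a5 (26.0%), an aflatoxin aldehyde reductase. At the level of DNA, the longest run of coding bases that Akr1e1 shares with any Akr1c gene of the cluster was 22 bp, with Akr1c12 and Akr1c13, which is shorter than a 50-base read.

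**Figure D3:**
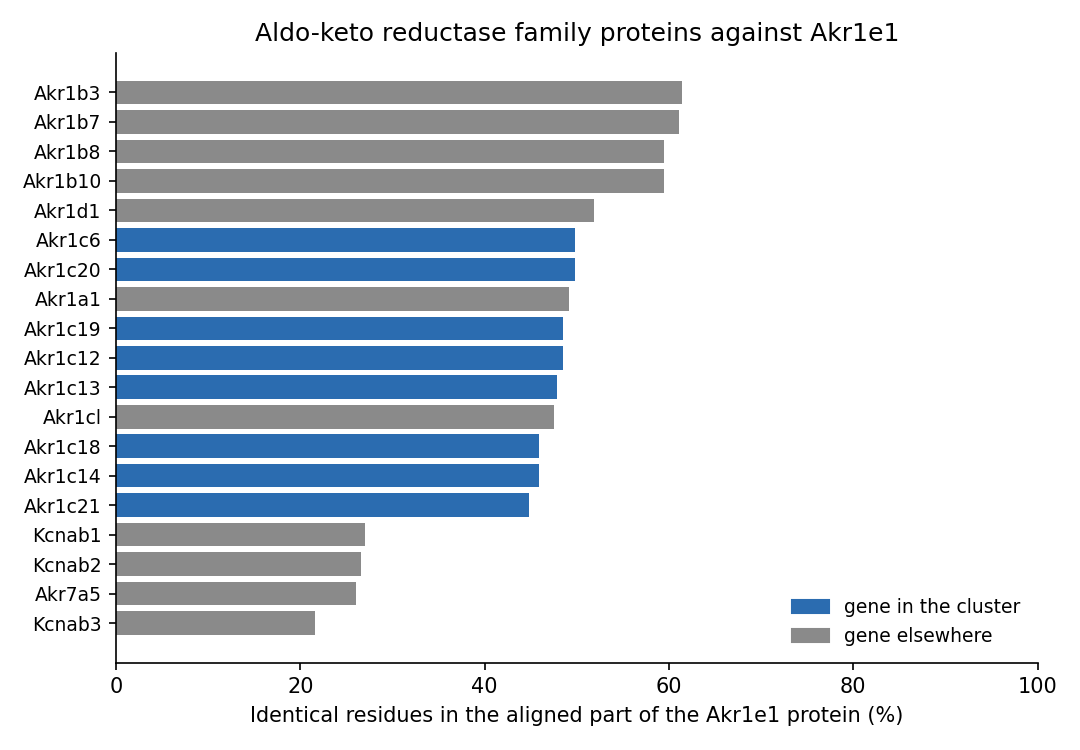
Identity of 19 aldo-keto reductase family proteins to Akr1e1. Bars give the percentage of identical residues in the aligned part, from 0 to 100%, in blue for genes of the cluster and grey for genes elsewhere. The Akr1b proteins stand at 59.5% to 61.5%, above all 8 Akr1c proteins of the cluster (44.9% to 49.8%).

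No sequence as long as a read in the Akr1e1 peak was found at another place. The reads were 50 bases long, so every run of 50 bases (50-mer) in the peak was searched for across both strands of the reference genome. Of 1342 such runs, 0 occurred at another place, whether exactly or with up to 2 mismatches. None of 1352 runs of 40 bases, the seed length that the authors used for mapping, and none of 1356 runs of 36 bases occurred elsewhere exactly. A search with BLAST found 2 alignments outside the peak, the longer of which covered 45 bases of it (3.24%) at 91.3% identity.

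The ribosomal part of Rpl29-ps2, outside the peak, was the opposite case. Of its 429 runs of 50 bases, 248 (57.8%) occurred elsewhere exactly and all 429 with up to 2 mismatches, at up to 89 other places. These matches fell in 174 annotated genes, 112 of them pseudogenes. Several pairs of a pseudogene and another gene share a chromosome and a number of matched runs. Overlapping genes can count the same place more than once, so 174 is not a number of separate copies. Rpl29, the parent gene on chromosome 9, matched 286 of the 429 runs. The peak did not reach this copy, and its nearest edge lay 4436 bp away.

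The same lookup was made at windows of the same size and shape around the Akr1c starts. It counted runs found anywhere else in the genome, and where these matches lay was not recorded. With up to 2 mismatches, 302 of 1342 runs at Akr1c13 (22.5%) and 291 at Akr1c12 (21.7%) occurred elsewhere. Akr1c20 had 167 (12.4%), Akr1c6 had 33 (2.46%) and Akr1c21 had 4 (0.298%). Akr1c14, Akr1c18 and Akr1c19 had 0, like Akr1e1. Akr1c12 and Akr1c13 had the highest shares, so the 120 bases before the outermost start of each are printed. Each is on the strand of its gene, with CpG in capitals where there are any (mm10, chr13:4279434-4279553 on the minus strand and chr13:4191030-4191149 on the plus strand). The same stretch of Akr1e1 (chr13:4609175-4609294, minus strand) follows.
Akr1c12: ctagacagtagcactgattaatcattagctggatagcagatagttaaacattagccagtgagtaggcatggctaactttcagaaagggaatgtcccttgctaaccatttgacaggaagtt
Akr1c13: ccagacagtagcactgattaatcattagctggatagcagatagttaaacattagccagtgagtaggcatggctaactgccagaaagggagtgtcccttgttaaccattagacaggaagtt
Akr1e1: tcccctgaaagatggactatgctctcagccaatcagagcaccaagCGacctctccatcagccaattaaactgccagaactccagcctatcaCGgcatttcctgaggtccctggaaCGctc

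Position by position, 114 of the 120 bases are the same in Akr1c12 and Akr1c13, and neither stretch holds a CpG, while that of Akr1e1 holds 3.

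Among the listed peaks, that of Akr1e1 was wide and, in the reference genome, unique. Its 1391 bp ranked 10 of 151 by width and were 10.5 times the median of 133 bp. The quartiles were 91 and 373 bp, and the range was 72 to 2470 bp. The neighbours in width were peaks of 1450 bp (nearest coding start Olfr725, 21072 bp away) and 1392 bp (Zfp324, 15458 bp) above it, and 1364 bp (Mrgprb5, 30429 bp) and 1297 bp (Ipo5, 136580 bp) below it. None of these 4 holds a protein-coding start, so width alone did not mark a start. With up to 2 mismatches, 34 of the 151 peaks (22.5%) had no run of 50 bases found elsewhere, and in 54 every run was found elsewhere. The median share of repeated runs was 67.8%. Exact matches gave 77 peaks (51.0%) with none. With up to 2 mismatches, over 50% of the runs were repeated in 82 of the 151 peaks, and with exact matches in 1. In the Akr1e1 peak no run was repeated by either measure.

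**Figure D4:**
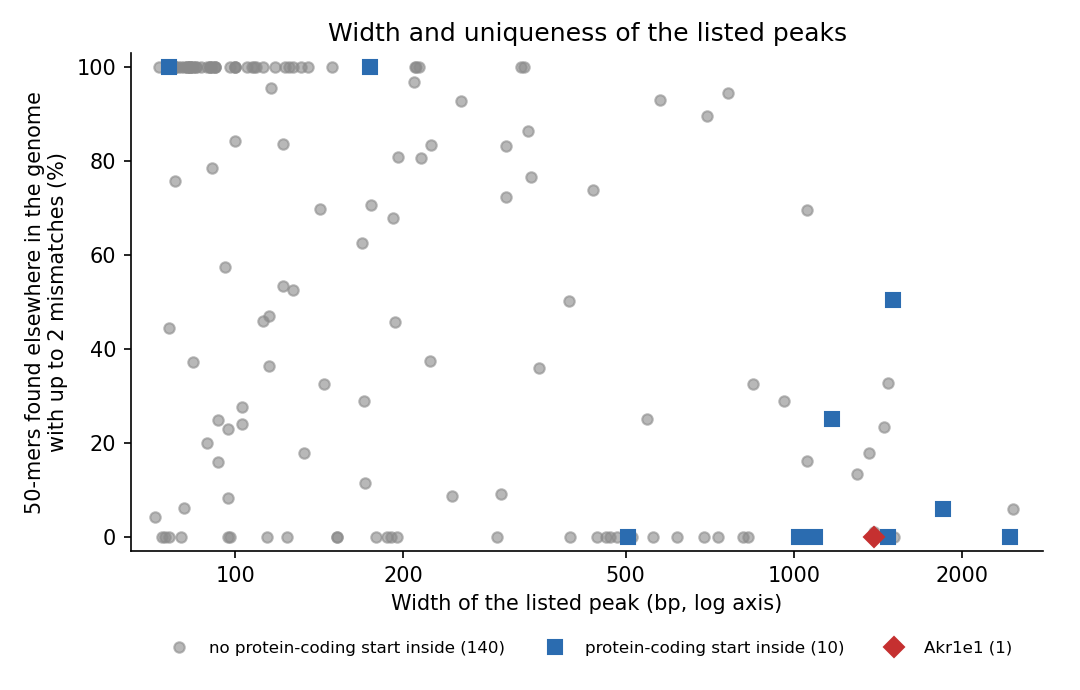
Width and uniqueness of the 151 listed peaks. The x axis gives width in bp on a log axis, the y axis the percentage of runs of 50 bases found elsewhere in the genome with up to 2 mismatches, squares are peaks with a protein-coding start inside and the diamond is Akr1e1. Akr1e1 lies at 1391 bp and 0%, where the median peak has 133 bp and 67.8%.

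The peaks most like it are those at least 1000 bp wide that hold a protein-coding start. There were 17 peaks of this width, 8 of them (47.1%) with a coding start inside, against 3 of the 134 narrower peaks (2.24%). In order of width these 8 start sites were those of Btbd9 (2440 bp), Glo1 (1853 bp), H60b (1504 bp), Pianp (1474 bp), Akr1e1 (1391 bp), Slfn8 (1171 bp), Adipor2 (1092 bp) and Glp1r (1021 bp). Glo1 encodes glyoxalase, which removes methylglyoxal, a small reactive carbonyl compound. H60b encodes a ligand of the natural killer cell receptor NKG2D, Adipor2 a receptor for adiponectin and Glp1r the receptor for glucagon-like peptide-1. Of the 8 peaks, 5 had no run of 50 bases repeated within 2 mismatches, namely Btbd9, Pianp, Akr1e1, Adipor2 and Glp1r. The others had shares of 6.04% (Glo1), 25.2% (Slfn8) and 50.4% (H60b). Starts on both strands were found in 2 of the 8, Akr1e1 and Btbd9.

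Akr1e1 had the lowest GC content of these 8 peaks, at 42.6% against 46.2% to 63.9% in the others. It also had the fewest CpG per 100 bp, at 1.51, next to Adipor2 at 1.92 and Slfn8 at 1.96, with Btbd9 highest at 6.43. In the ratio of observed to expected CpG it was the next to lowest, at 0.332, above Slfn8 at 0.313. Its repeat-masked share of 17% was the highest of the 8. Among all 151 peaks it ranked 127 by GC content (median 52.1%), 111 by CpG per 100 bp (median 3.04) and 52 by repeat-masked share (median 9.73%).

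**Figure D5:**
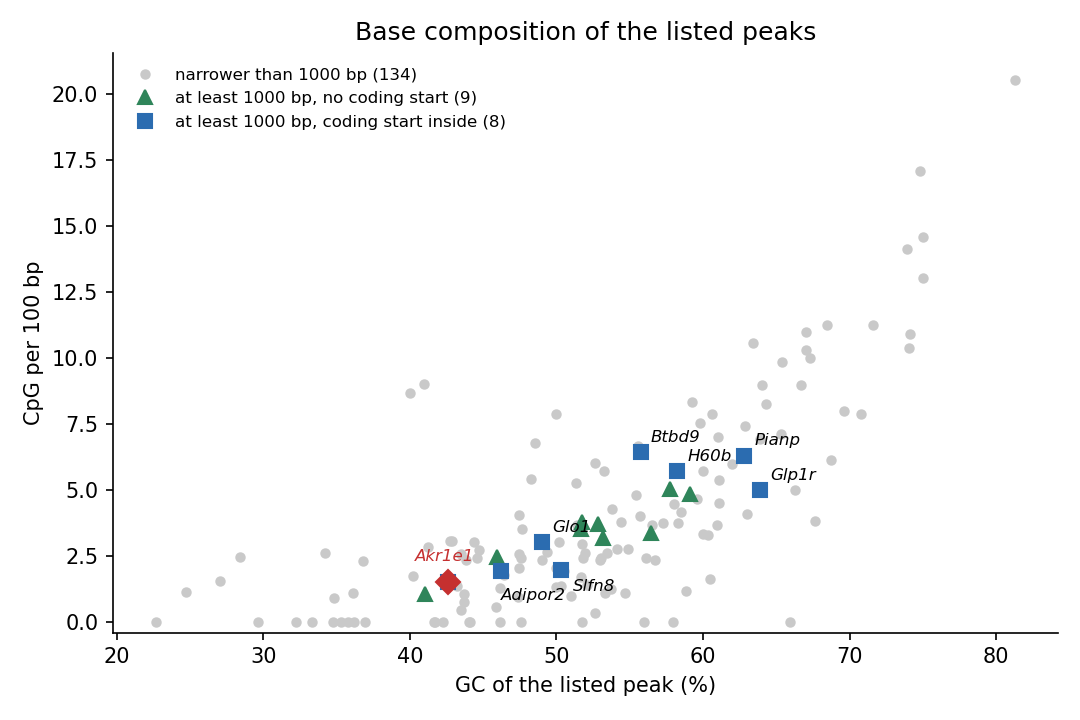
Base composition of the 151 listed peaks. The x axis gives GC content in %, the y axis the number of CpG per 100 bp, and symbols separate peaks under 1000 bp, peaks of at least 1000 bp without a coding start (triangles) and with one (squares, named). Akr1e1 (red diamond, 42.6% and 1.51) lies at the lower left of the named peaks.

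On chromosome 13 the Akr1e1 peak stood alone. The list holds 7 other peaks there, the nearest 8.83 Mb away, with widths of 78 to 618 bp and no protein-coding start inside any of them. The nearest starts were those of Nid1 (692 bp from a peak of 82 bp), Tbce (17566 bp from 109 bp), Btn2a2 (9334 bp from 618 bp), Erap1 (48267 bp from 78 bp), Mrps27 (10708 bp from 91 bp) and, for a pair of peaks of 124 and 103 bp, Tmem267 (8830 and 8572 bp). In 5 of the 7 some runs of 50 bases were found elsewhere with up to 2 mismatches, and the peaks without any were the one of 618 bp near Btn2a2 and the one of 124 bp at Tmem267. Pseudogenes overlapped 16 of the 151 listed peaks. In 13 of these the overlap covered at least 50% of the peak, which was not so at Akr1e1, where 413 of 1391 bp fell in the span of Rpl29-ps2.

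No other gene of the family had a listed peak close to a start site. Of 20 aldo-keto reductase family genes, 1 (Akr1e1) had a listed peak within 1 kb and the same 1 within 10 kb. Within 100 kb there were 4, namely Akr1e1, Akr7a5 (20.0 kb from chr4:139330764-139331062), Akr1c21 and Akr1c20, of which the last pair are counted through the Akr1e1 peak itself. Over all 21866 genes, 73 (0.334%) had a listed peak within 10 kb and 361 (1.65%) within 100 kb. Of 16 genes of ovarian steroid hormone synthesis and response, among them Star, Cyp11a1, Cyp19a1, Esr1 and Esr2, 0 had a listed peak within 100 kb, and the closest was Hsd17b7 at 286 kb. Of 9 other carbonyl-reducing or carbonyl-detoxifying enzymes, 1 had a listed peak within 1 kb, Glo1. These counts of 0 or 1 gene in a list describe where listed peaks lie and set none of the lists apart.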

How the data were processed

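H3K4me3 ChIP-seq was done on 2 CD and 2 control samples. Per the labels, the submitters' processing notes name bcl2fastq 2.17.1.14, Bowtie 1.0.0, MACS2 2.1.1, limma and the build mm10. The authors mapped 50-base single-end reads with a seed of 40 bases, called peaks with input and tested them with limma. The authors deposited a single list of 151 positions (other values than start and end were not used), made at thresholds of 1.5 for fold change and 0.1 for FDR as its name gives them. Its remaining column holds the authors' own fold change of CD against control, and neither its values nor its direction are used here. The list holds no counts and the depth of each sample is not given in the sources used here, so no precision per sample or peak can be stated. Starts were read as counted from 0 and are printed counted from 1.

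Positions were joined to the GRCm38 genome, GENCODE M21 and RefSeq (GRCm38.p6). Coding starts are those of protein-coding transcripts. Starts of all annotated transcripts were used for starts on both strands, for the transcripts of Akr1e1 and Rpl29-ps2 and for non-coding genes. Distances run from the peak's edge, and windows were centred on a gene's outermost start. Copies of 50-mers were counted on both strands of the primary assembly with up to 2 mismatches, in code tested on simulated data, and megablast (BLAST+ 2.17.0, word size as preset) was run on the peak. Proteins were aligned globally (BLOSUM62, gap open 11, gap extend 1, identity over aligned residues) with Biopython 1.88. Python 3.11.15, NumPy 2.4.6 and Numba 0.67.0 were used. Named were all coding genes and pseudogenes of the window, the family, the chromosome 13 peaks, the 2 peaks on each side in width, wide peaks with a coding start, the parent gene of Rpl29-ps2 and, of the other gene lists, genes within 10 kb of a listed peak. Hsd17b7 and the steroid genes named as examples lie outside this rule. The window, the gene and the lists were chosen with earlier results of these data known.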

Additional observations from a re-analysis of the deposited data

How the results depend on the processing

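Of 19 alternatives to 9 results, 16 left the value within 1.5 times of that reported. Some of these could not have moved it. The nearest other listed peak on chromosome 13 lies 8.83 Mb away, and all 4 Akr1e1 transcripts start inside the peak. Counting to 100 kb in place of 1 kb gave 3 coding genes of the cluster with a listed peak, Akr1e1, Akr1c21 and Akr1c20, all through the Akr1e1 peak. Counting all annotated genes of the cluster within 1 kb gave 2, Akr1e1 and Rpl29-ps2. Counting to 100 kb in place of 10 kb gave 4 genes of the aldo-keto reductase family. Wide peaks with a coding start were 9 with a width of at least 500 bp, against 8. The share of 50-mers of the Akr1e1 peak found elsewhere was 0% in each of the 4 alternatives tried. A stricter fold change was not tried, because the authors' column was not used. No sample could be left out, and depth per sample is unknown. No paired analysis was possible because the list holds no value per sample.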
